A study of Mus musculus with 20 samples.

Results

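Interferon response and antigen presentation genes are 43 genes of the mouse liver study, chosen by symbol from a written list and found among the 24848 genes of every deposited table. By role they are 4 transcription factors, 3 cytosolic RNA sensors, 15 antiviral effectors and regulators, 7 interferon-inducible GTPases, 9 genes of class I antigen presentation and 5 of class II. RNA was sequenced from 5 groups of 4 libraries each, 20 in all, from livers of the C57BL/6 strain. The groups are portal mesenchymal stem cells (PMSCs, fibroblast-lineage cells from around the portal tracts), myofibroblasts derived from them in culture for 3 days (PMSC-MF-3d) and 7 days (PMSC-MF-7d), myofibroblasts derived from hepatic stellate cells (HSC-MF-7d), and hepatic stellate cells (HSCs, the vitamin A-storing cells of the sinusoids). PMSCs and HSCs are called fresh here because the labels name no culture for them. No treatment, transgene, sex or animal age is named for any group. The sample titles give 7 days for the stellate-derived myofibroblasts, while the design text of the series gives 3 days, so their time in culture is uncertain and comparisons that use them inherit this. The labels do not say whether a group's 4 libraries represent different mice or different culture dishes, so each p-value reflects only library-to-library spread, which may be technical.

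Interferons are secreted alarm signals. Type I interferons bind the Ifnar1-Ifnar2 receptor and activate a complex with Stat2 and Irf9 that binds interferon-stimulated response elements, whereas interferon gamma binds Ifngr1-Ifngr2 and acts on gamma-activated sites and through Irf1. The induced genes sense viral RNA, block viral replication, attack intracellular vacuoles and equip the cell to show peptides on class I molecules. Class II molecules show peptides to helper T cells. They are made mainly by dendritic cells, macrophages and B cells, under the coactivator Ciita, while Nlrc5 serves class I genes.

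Library totals lay between 11810532 and 26675589 estimated counts, and all 43 genes passed the filter on low counts that left 14751 genes to test. Levels are given as CPM (counts scaled to library size with TMM factors) for comparisons of a gene between libraries, and as TPM (abundance corrected for transcript length) for comparisons between genes. Values per library follow the order of replicates 1 to 4. A gene is called higher or lower at an adjusted p under 0.05 in edgeR's quasi-likelihood test. The cell type labels stood beside marker lists as follows: 8 of 8 portal fibroblast markers were higher and 7 of 9 stellate markers lower in PMSCs than in HSCs. The fresh HSC libraries also held RNA of other cell types. The summed level of 16 macrophage markers was 38.5, 28.8, 33.01 and 33.2 CPM in PMSCs and 12180.0, 6066, 5305 and 3289 CPM in HSCs, and that of 8 endothelial markers was 173, 89.3, 40.5 and 48.1 CPM in PMSCs and 7084, 6183, 7019 and 7345 CPM in HSCs. That of 8 hepatocyte markers was 996, 1088, 682 and 1096 CPM in PMSCs and 13450.0, 12800.0, 3238 and 4536 CPM in HSCs, with 7 of 8 lower and 1 higher in PMSCs. Because these are bulk libraries, fewer cells of a type and less RNA per cell cannot be told apart.

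Regulatory sequence shared by the genes was read from RefSeq promoters of build GRCm38.p6, the assembly behind the mm10 build of the submitters' processing notes. Windows ran from 250 bases before to 50 bases after the start. A window was given for 30 of the 43 genes. The interferon-stimulated response element (ISRE, searched as GAAANNGAAA on both strands) was held by 16 of the 30 windows (53.3%), against 1079 of 27025 genes with a window (3.99%). The longer ISRE form that ends in CT, which is a subset of these matches, was held by 10 of 30 (33.3%), against 82 of 27025 genes (0.303%). The gamma-activated site (GAS, TTCNNNGAA) was held by 8 of 30 (26.7%), against 9.55% of all genes, and CCAAT, the box bound by NF-Y, was held by 14 of 30 (46.7%), against 41.1%. The ISRE was in 6 of 6 GTPase windows, 2 of 2 sensor windows and 6 of 9 effector windows, but in 1 of 7 class I windows, that of B2m, and in 0 of 2 class II windows. CCAAT had the other distribution, with 6 of 7 class I windows and 2 of 2 class II windows. It was in 2 of 4 transcription factor, 0 of 2 sensor, 2 of 9 effector and 2 of 6 GTPase windows. The CCAAT match of Tap1 lies between Psmb9 and Tap1, so the windows of both may hold the same match. A match is a description of letters and not a shown binding site. The stretches below carry the matches of genes on which the following results turn, each read along its gene's strand with the matched letters in capitals. The antiviral Isg15, Ifit1 and Ifit3, the GTPases Gbp2, Gbp5 and Irgm1, and B2m show the ISRE (in the other orientation where it reads TTTCNNTTTC). In the order shown they lie at chr4:156200850-156200909, chr19:34640779-34640838, chr19:34583373-34583441, chr3:142620579-142620638, chr3:142496744-142496803, chr11:48871421-48871469 and chr2:122147523-122147582.
Isg15: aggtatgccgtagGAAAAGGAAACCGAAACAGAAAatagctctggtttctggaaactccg
Ifit1: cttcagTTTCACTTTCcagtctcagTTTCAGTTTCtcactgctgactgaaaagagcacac
Ifit3: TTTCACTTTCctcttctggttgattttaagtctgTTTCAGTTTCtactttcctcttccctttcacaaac
Gbp2: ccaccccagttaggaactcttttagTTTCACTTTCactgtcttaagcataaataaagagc
Gbp5: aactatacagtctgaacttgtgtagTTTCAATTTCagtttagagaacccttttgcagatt
Irgm1: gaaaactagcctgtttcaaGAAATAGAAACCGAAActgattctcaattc
B2m: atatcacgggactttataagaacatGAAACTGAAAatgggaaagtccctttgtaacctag

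Isg15 and Irgm1 held runs of overlapping matches, and Ifit1 and Ifit3, neighbours on chromosome 19, each held a pair. Irf1 is shown for its GAS match (chr11:53769899-53769957), and H2-Aa (chr17:34287842-34287896), H2-Eb1 (chr17:34305807-34305861) and Tap1 (chr17:34187309-34187363) for CCAAT, which reads ATTGG on the other strand.
Irf1: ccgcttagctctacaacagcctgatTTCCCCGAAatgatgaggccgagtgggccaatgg
H2-Aa: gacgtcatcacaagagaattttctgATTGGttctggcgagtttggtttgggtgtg
H2-Eb1: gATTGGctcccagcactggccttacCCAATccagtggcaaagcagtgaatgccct
Tap1: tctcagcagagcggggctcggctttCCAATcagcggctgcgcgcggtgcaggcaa

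Genomic position grouped several of the genes. Chromosome 17 carries 10 of them between 33919478 and 35267497 (GRCm38.p6), the major histocompatibility complex, where Tapbp, H2-K1, Psmb9, Tap1, Psmb8, Tap2, H2-Ab1, H2-Aa, H2-Eb1 and H2-D1 lie. Gbp5, Gbp7, Gbp3 and Gbp2 lie within 141075 bases on chromosome 3, and Ifit2, Ifit3 and Ifit1 within 99460 bases on chromosome 19. Reads shared between near-identical copies were divided by the authors' estimation, so values of single Gbp, Ifit, Oas and H2 genes are uncertain where copies resemble each other, and the strand setting of the counting step is not stated.

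Summed in TPM by role, the class I genes were the most abundant of the 6 roles in every group, and the class II genes were the least abundant in each of the 3 cultured groups. B2m, the invariant class I light chain, averaged 5041 ± 581 TPM in PMSCs, and in the cultures 644 ± 11.2 TPM at 3 days and 1006 ± 70.6 TPM at 7 days. It averaged 1970.0 ± 31.9 TPM in HSC-MF-7d and 12160.0 ± 342 TPM in HSCs (SD, n = 4 each). Summed over the 9 class I genes, the level was 8101 ± 900.5 TPM in PMSCs and 20940.0 ± 971 TPM in HSCs, and it was 913 ± 10.7, 1236 ± 84.99 and 2604 ± 46.5 TPM in PMSC-MF-3d, PMSC-MF-7d and HSC-MF-7d (SD, n = 4 each). The 15 effectors summed to 4330.0 ± 147 TPM in PMSCs and 6095 ± 569 TPM in HSCs, and to 671 to 811 TPM across PMSC-MF-3d libraries. Much of this sum was Ifitm3, which restricts viral entry, at 3422 ± 182 TPM in PMSCs and 3845 ± 343 TPM in HSCs. The 5 class II genes summed to 135, 47.7, 31.3 and 38 TPM in PMSC libraries and 3203, 1163, 1898 and 1592 TPM in HSC libraries, and to at most 3.43 TPM in any cultured library. All levels per library are drawn in the heat map of the 43 genes.

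**Figure D1:**
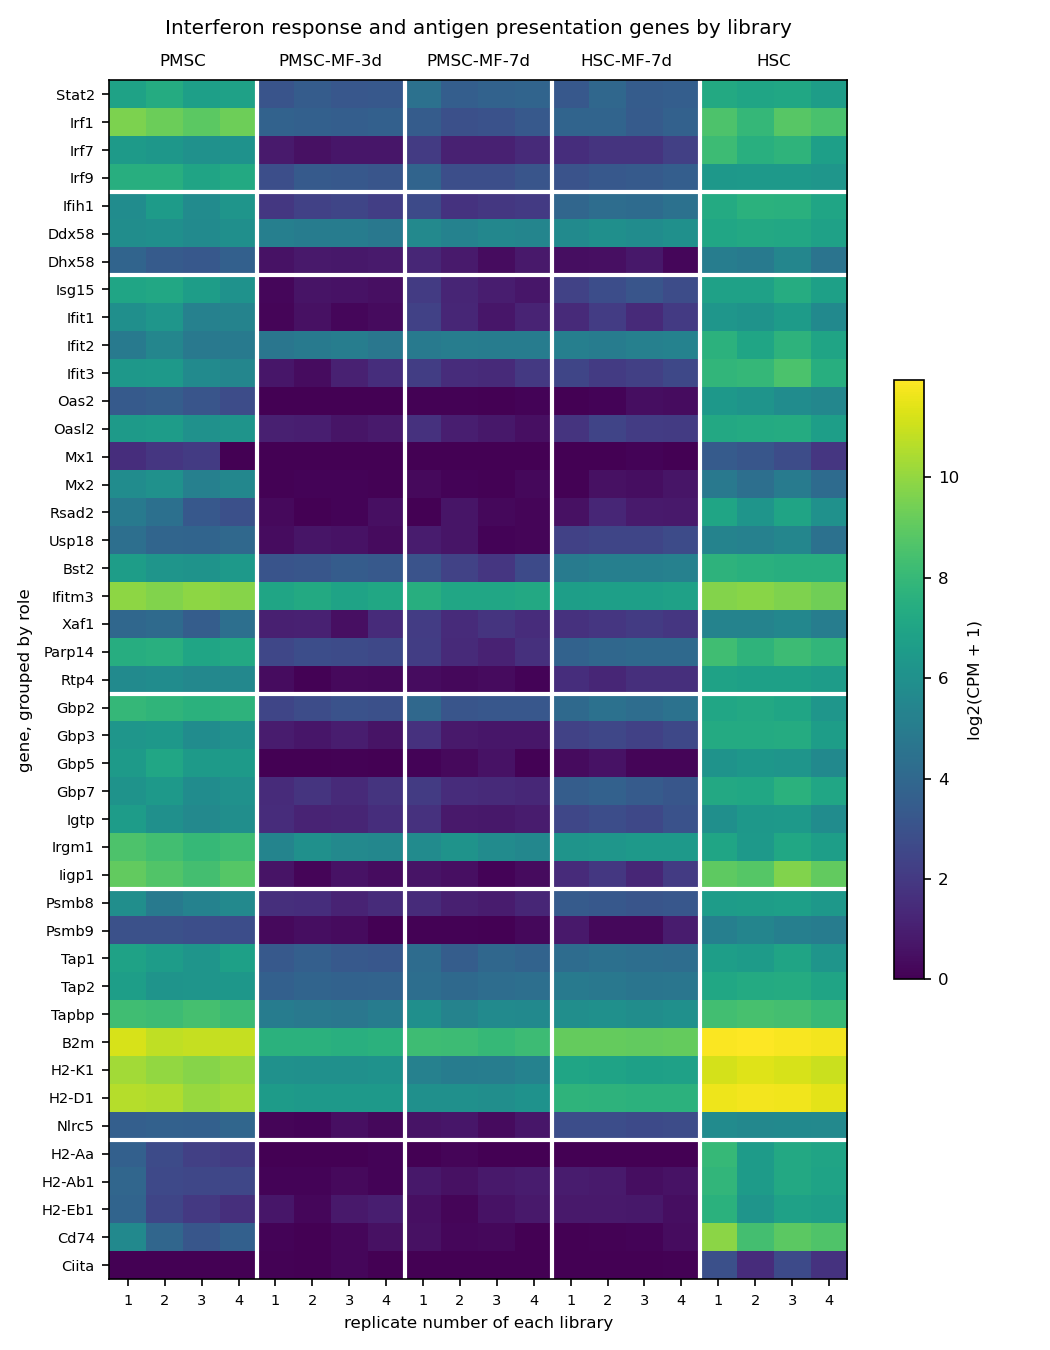
Heat map of the level of each of the 43 genes (rows, grouped by role) in each of the 20 libraries (columns, by group), as log2(CPM + 1). The fresh PMSC and HSC columns are bright across nearly all rows, the cultured columns are darker, with B2m, Ifitm3, H2-D1, H2-K1, Irgm1, Tapbp, Ddx58 and Ifit2 the brightest rows, and the class II rows are brightest in the HSC columns.

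The first comparison set fresh PMSCs against fresh HSCs. In PMSCs 28 of the 43 genes were lower, 6 were higher and 9 were not called, where 40.1% of all genes tested were lower and 33.6% higher. The median log2 fold change of the 43 genes was -1.15, against -0.10 over all genes tested. The class I and class II genes and the sensors leaned to lower values in PMSCs, while the transcription factors and the GTPases held genes of both directions. Of the 4 transcription factors 2 were higher and 1 lower, of the 3 sensors 3 were lower, of the 15 effectors 1 was higher and 10 lower, of the 7 GTPases 3 were higher and 2 lower, of the 9 class I genes 7 were lower and of the 5 class II genes 5 were lower. With library totals in place of TMM, the median over all genes moved to -0.44 and 33.3% of called genes were higher, against 45.6% with TMM.

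Among the transcription factors, Irf1, which drives genes induced by interferon gamma, class I genes among them, had 776, 619.6, 482 and 641 CPM in PMSCs and 386, 248, 452 and 359 CPM in HSCs. Every PMSC library was above every HSC library (log2 fold change 0.80 ± 0.17 (SE), adjusted p = 0.00022, edgeR). Irf9, the DNA-binding part of the complex it forms with Stat2, had 178, 178, 126 and 153 CPM in PMSCs and 80.7, 83.2, 83.6 and 75.9 CPM in HSCs, again without overlap (log2 fold change 0.98 ± 0.18 (SE), adjusted p = 7.7e-05). Irf7, the amplifier of type I interferon production, went the other way, with 88.6, 77.98, 64.97 and 67.4 CPM in PMSCs and 288, 184, 219.6 and 105 CPM in HSCs (log2 fold change -1.41 ± 0.26 (SE), adjusted p = 6.7e-05). The HSC libraries spread more than the PMSC libraries and HSC replicate 4 was the lowest of them. Stat2 was not called, at 124 ± 25.6 CPM in PMSCs and 129.5 ± 21.9 CPM in HSCs (SD, n = 4 each). The sensors of viral double-stranded RNA were all lower in PMSCs: Ifih1 (MDA5) at -1.29 (adjusted p = 2e-05), Ddx58 (RIG-I) at -1.22 (adjusted p = 1.4e-09) and their relative Dhx58 (LGP2) at -1.56 (adjusted p = 6.2e-05) on the log2 scale by edgeR.

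Among the antiviral effectors, Mx2, a dynamin-like GTPase, was the 1 higher gene, with 54.5, 65.5, 36.1 and 45.8 CPM in PMSCs and 27.04, 19.5, 29.98 and 17.3 CPM in HSCs (log2 fold change 1.11 ± 0.24 (SE), adjusted p = 0.00042, edgeR). All PMSC libraries lay above all HSC libraries; with limma on log2(TPM + 0.1) its adjusted p was 0.11. Oas2, which makes the activator of RNase L, had 9.31, 10.6, 7.73 and 5.81 CPM in PMSCs and 81.6, 70.7, 54.4 and 45.8 CPM in HSCs, a 7.55-fold lower level (log2 fold change -2.92 ± 0.28 (SE), adjusted p = 6e-08). Rsad2 (viperin) had 28.4, 20.1, 8.67 and 6.57 CPM in PMSCs and 129, 73.3, 124 and 63.9 CPM in HSCs (log2 fold change -2.61 ± 0.43 (SE), adjusted p = 2e-05). The groups did not overlap for either gene, and Rsad2 was lower in PMSC replicates 3 and 4 than in replicates 1 and 2. The neighbours Ifit1, Ifit2 and Ifit3, members of an antiviral RNA-binding family, differed in call: Ifit2 was 5.099-fold lower in PMSCs (log2 fold change -2.35 ± 0.17 (SE), adjusted p = 3e-10) and Ifit3 3.98-fold lower (log2 fold change -1.99 ± 0.29 (SE), adjusted p = 5.2e-06), while Ifit1 had 60.98, 76.7, 37.4 and 39.4 CPM in PMSCs and 76.4, 68.4, 91.6 and 50.3 CPM in HSCs and was not called (log2 fold change -0.42 ± 0.33 (SE), adjusted p = 0.26). Isg15, the ubiquitin-like modifier, overlapped between the groups, with 129.9, 140.1, 98.7 and 67.7 CPM in PMSCs and 111, 111, 166 and 110.5 CPM in HSCs (adjusted p = 0.55). The remaining effectors that were lower in PMSCs were Oasl2, Usp18 (which removes Isg15), Bst2 (tetherin), Xaf1, Parp14 and Rtp4, with log2 fold changes from -1.35 for Xaf1 to -0.71 for Parp14. Ifitm3 and the low-count Mx1, whose protein is truncated in this strain, were not called.

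The GTPases, which act on pathogen vacuoles, split. Irgm1 had 394, 319, 252 and 299.6 CPM in PMSCs and 128, 86.5, 136 and 102 CPM in HSCs, the largest increase among the 43 genes (log2 fold change 1.48 ± 0.17 (SE), adjusted p = 1.3e-07, edgeR). Gbp2 had 248, 227, 197 and 209 CPM in PMSCs and 131, 148, 127 and 77.5 CPM in HSCs (log2 fold change 0.87 ± 0.20 (SE), adjusted p = 0.00054), whereas its neighbour Gbp3 had 75.2, 82.6, 55.8 and 65.2 CPM in PMSCs and 155, 158, 159 and 100.3 CPM in HSCs (log2 fold change -1.04 ± 0.22 (SE), adjusted p = 0.00034). Gbp7 was also lower in PMSCs (log2 fold change -1.15 ± 0.18 (SE), adjusted p = 1.2e-05). Genes of 1 cluster on chromosome 3 therefore differed in opposite directions between the cell types. Gbp5 had 90.4, 133, 89.4 and 88.5 CPM in PMSCs and 68.2, 79.1, 72.8 and 50 CPM in HSCs (log2 fold change 0.57 ± 0.22 (SE), adjusted p = 0.024); its call was lost without PMSC replicate 2 (adjusted p = 0.053) and without HSC replicate 4 (adjusted p = 0.086), with library totals (adjusted p = 0.34) and with limma on log2(TPM + 1) (adjusted p = 0.3). Igtp and Iigp1 were not called, with Iigp1 at 542, 413, 328 and 448 CPM in PMSCs and 500.4, 444, 825 and 540.0 CPM in HSCs.

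In class I presentation, B2m had 2347, 1765, 1873 and 1877 CPM in PMSCs and 3737, 3926, 3652 and 3406 CPM in HSCs, and the groups did not overlap (log2 fold change -0.90 ± 0.08 (SE), adjusted p = 9.9e-09, edgeR). The heavy chains H2-K1 (log2 fold change -1.17 ± 0.10 (SE), adjusted p = 3.3e-09) and H2-D1 (log2 fold change -1.24 ± 0.09 (SE), adjusted p = 5.4e-10) were 2.25-fold lower and 2.36-fold lower in PMSCs. Nlrc5, the class I coactivator, had 11.2, 12.1, 11.5 and 14.4 CPM in PMSCs and 53.5, 46.5, 50.3 and 48.4 CPM in HSCs (log2 fold change -2.01 ± 0.19 (SE), adjusted p = 1.5e-08). Of the peptide transporter, Tap2 was lower in PMSCs (log2 fold change -0.84 ± 0.11 (SE), adjusted p = 1.2e-06) and Tap1 was not called (log2 fold change 0.02 ± 0.16 (SE), adjusted p = 0.94), and Tapbp (tapasin, which loads peptides) was not called either (log2 fold change -0.05 ± 0.11 (SE), adjusted p = 0.68). The immunoproteasome subunits Psmb8 (log2 fold change -1.14 ± 0.18 (SE), adjusted p = 9.7e-06) and Psmb9 (log2 fold change -2.46 ± 0.37 (SE), adjusted p = 6.7e-06) were lower in PMSCs.

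The class II genes had the widest difference. H2-Aa, an MHC class II alpha chain, had 11.6, 5.68, 3.87 and 3.25 CPM in PMSCs and 257, 93.7, 148 and 126 CPM in HSCs (log2 fold change -4.66 ± 0.40 (SE), adjusted p = 1.7e-08, edgeR). Cd74, the invariant chain that guides class II molecules, had 49.9, 14.3, 8.15 and 11.6 CPM in PMSCs and 924, 335, 485 and 398 CPM in HSCs (log2 fold change -4.66 ± 0.50 (SE), adjusted p = 8.3e-08). Replicate 1 was the highest library of its group for Cd74 in both cell types; the fold change was -5.54 without PMSC replicate 1 and -4.27 without HSC replicate 1. H2-Ab1 differed by -4.31 (adjusted p = 9.4e-10) and H2-Eb1 by -4.38 (adjusted p = 7e-08) on the log2 scale, and H2-Eb1 by -5.23 without PMSC replicate 1. Ciita had 0 counts in all 4 PMSC libraries together and 273 in the HSC libraries, so its level was at least 78.5-fold lower in PMSCs, with 3 counts over the group taken as the floor.

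Markers of macrophages, dendritic cells, endothelial cells and hepatocytes moved with the class II genes. All 16 macrophage markers were lower in PMSCs than in HSCs, and Vsig4, Marco and Cd163, which mark resident liver macrophages, were at 0 in all 4 PMSC libraries. Within HSCs the macrophage sum was highest in replicate 1 (12180.0 CPM) and lowest in replicate 4 (3289 CPM), while Cd74 was highest in replicate 1 and lowest in replicate 2. The sum of 8 dendritic cell markers was 5.85 to 14.1 CPM in PMSCs and 47.6 to 60.9 CPM in HSCs, and its member Clec9a, a marker of cross-presenting dendritic cells, had 11.8, 4.95, 6.602 and 5.29 CPM in HSCs. Of the dendritic markers 4 passed the filter and 4 were lower in PMSCs, and 8 of 8 endothelial and 7 of 8 hepatocyte markers were lower. Other lists were mixed. Of 5 B cell markers 2 passed the filter, with 1 higher and 1 lower in PMSCs. Of 4 mesothelial markers 1 was higher and 1 lower, and of 4 cholangiocyte markers 1 was lower. The part of these cell types in the class II result was not tested. Neither was their part tested in the lower sensor, effector and class I levels of PMSCs, for which the same marker sums apply.

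**Figure D2:**
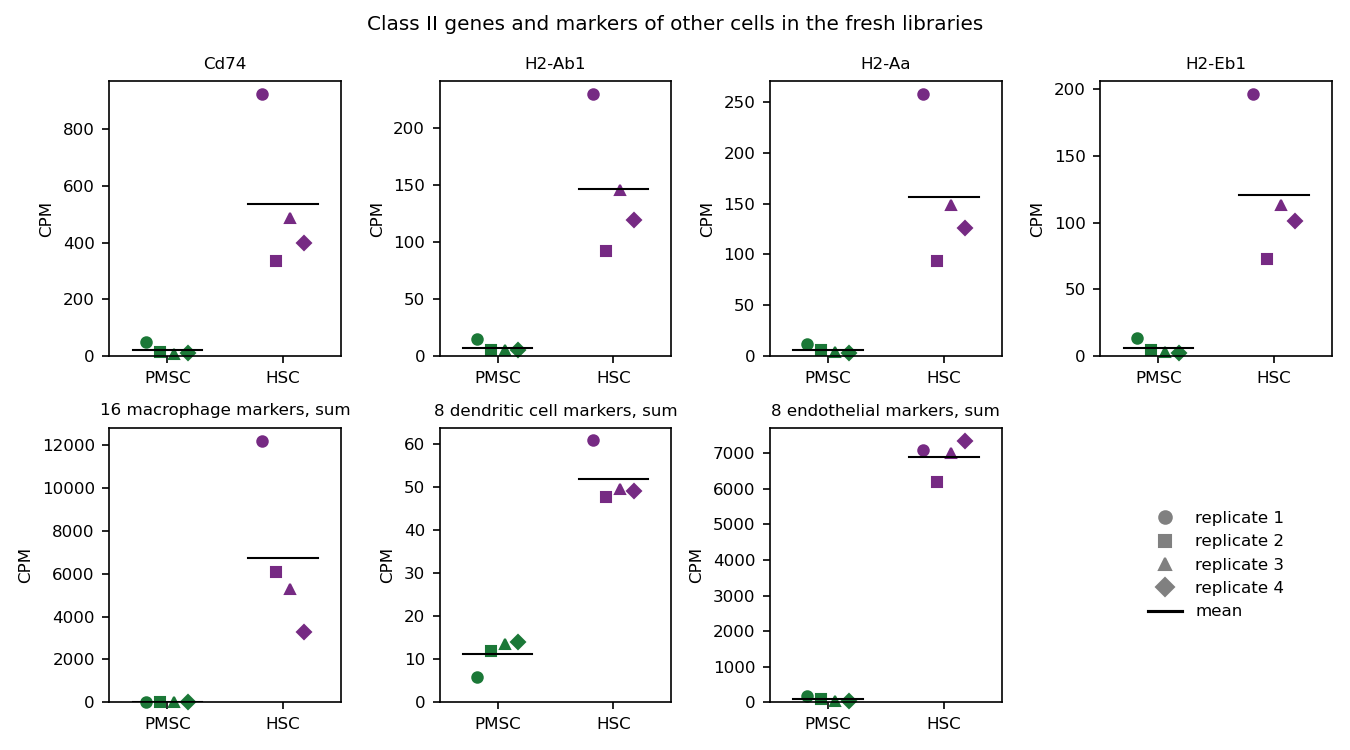
Level in CPM (linear axis) of Cd74, H2-Ab1, H2-Aa and H2-Eb1 and of the summed macrophage, dendritic cell and endothelial markers in each PMSC and HSC library (points, 4 per group, PMSC left of HSC). Lines mark the group means. Cd74 lies at 8.15 to 49.9 CPM in PMSCs and 335 to 924 CPM in HSCs, and the macrophage sum at 28.8 to 38.5 CPM in PMSCs and 3289 to 12180.0 CPM in HSCs.

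The second question of the design is what changes as PMSCs become myofibroblasts in culture. In PMSC-MF-3d 41 of the 43 genes were lower than in fresh PMSCs and 0 were higher. Over all genes tested 41.1% were lower and 37.2% higher. The median log2 fold change of the 43 genes was -5.01, against -0.07 over all genes. In PMSC-MF-7d, against the same fresh PMSC libraries, 41 were lower and 0 higher, where 39.0% of all genes were lower and 38.1% higher, and the median was -4.86 (-4.88 with genes of at most 3 counts in a group put at their bound or counting ratio). Ifit2 and Ciita were the genes not called at either time. Both comparisons share the fresh PMSC libraries and are not independent. Scaling by library totals moved the median of all genes to 0.41 at 3 days and 0.43 at 7 days, and the higher share among called genes to 61.7% and 63.5%, against 47.5% and 49.4% with TMM. As a share of the fresh level in CPM, the 42 genes detected in PMSCs kept a median of 2.93% at 3 days and 3.39% at 7 days. At 3 days 35 genes were under 10% of their fresh level and 11 under 1%.

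All 4 transcription factors fell. Irf1 had 12.4, 11.6, 10.9 and 11.7 CPM in PMSC-MF-3d and 10.2, 6.52, 7.07 and 9.12 CPM in PMSC-MF-7d, against 482 to 776 CPM in PMSCs (log2 fold change -5.76 ± 0.20 (SE), adjusted p = 5e-15 at 3 days, edgeR). Irf7 had 0.837, 0.45, 0.6603 and 0.677 CPM at 3 days and 3.26, 1.14, 1.14 and 1.697 CPM at 7 days, and kept 0.878% and 2.42% of its fresh level (log2 fold change -6.82 ± 0.37 (SE), adjusted p = 1.8e-12 at 3 days). Stat2 and Irf9 differed from fresh PMSCs by -3.82 (adjusted p = 3.5e-12) and -4.29 (adjusted p = 4.1e-13) on the log2 scale at 3 days. The sensors were uneven. Ddx58 kept 53.2% of its fresh level at 3 days and 74.96% at 7 days, whereas Ifih1 kept 5.495% and 4.94%. The 7-day difference of Ddx58 was small (log2 fold change -0.42 ± 0.10 (SE), adjusted p = 0.0008) and turned to 0.047 with library totals, 0.059 with limma on log2(TPM + 1) and 0.062 with log2(TPM + 0.1), none of which was called.

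Among the effectors, Isg15 had 0.152, 0.562, 0.514 and 0.414 CPM in PMSC-MF-3d against 67.7 to 140.1 CPM in PMSCs (log2 fold change -8.03 ± 0.44 (SE), adjusted p = 2e-12, edgeR). Oas2 had 0 counts in the 4 PMSC-MF-3d libraries against 481 in the PMSC libraries, at least 297-fold lower, and Mx1 was also at 0, at least 63.6-fold lower. PMSC replicate 4 had 0 counts of Mx1 as well. Rtp4, a chaperone of opioid receptors with antiviral activity, had 0.304, 0.0375, 0.2201 and 0.188 CPM against 46.1 to 55.3 CPM in PMSCs (log2 fold change -8.01 ± 0.24 (SE), adjusted p = 7.1e-16). Ifit2 stood apart. It had 24.9, 29.3, 32.1 and 25.4 CPM in PMSC-MF-3d, 28.7, 31.9, 30.9 and 30.9 CPM in PMSC-MF-7d and 29, 44.2, 27.3 and 29.4 CPM in PMSCs, so the cultured libraries overlapped the fresh ones, and it kept 86.1% of its fresh level at 3 days where its neighbours Ifit1 and Ifit3 kept 0.454% and 1.58%. Ifit2 was not called (log2 fold change -0.22 ± 0.17 (SE), adjusted p = 0.23 at 3 days and log2 fold change -0.09 ± 0.17 (SE), adjusted p = 0.64 at 7 days); at 7 days it was called higher with library totals (log2 fold change 0.38, adjusted p = 0.031) and with limma on log2(TPM + 1) (0.39, adjusted p = 0.032) and on log2(TPM + 0.1) (0.42, adjusted p = 0.028). Ifitm3 stayed the most abundant effector, with 129.9, 152, 122 and 136 CPM in PMSC-MF-3d and 948, 819, 959 and 860.1 CPM in PMSCs (log2 fold change -2.73 ± 0.11 (SE), adjusted p = 3.1e-14).

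All 7 GTPases were lower. Gbp5 had 1 count over the PMSC-MF-3d libraries, a level 10820.0-fold lower than in PMSCs with a 95% counting interval from 1942 to 427600.0-fold, and that count lay in PMSC-MF-3d replicate 3. Iigp1 had 0.533, 0.113, 0.514 and 0.301 CPM against 328 to 542 CPM in PMSCs (log2 fold change -10.19 ± 0.38 (SE), adjusted p = 1e-14, edgeR). Irgm1, in contrast, kept 15.5% at 3 days, with 40.2, 61.8, 47.6 and 45.8 CPM (log2 fold change -2.69 ± 0.17 (SE), adjusted p = 2.3e-11). All 9 class I genes were lower. B2m had 196, 196, 186 and 198 CPM in PMSC-MF-3d against 1765 to 2347 CPM in PMSCs (log2 fold change -3.34 ± 0.09 (SE), adjusted p = 2.1e-16), and H2-K1 and H2-D1 differed by -4.02 (adjusted p = 2.5e-16) and -3.92 (adjusted p = 1.9e-16) on the log2 scale. The transporter genes kept more, with Tap2 at 15.3% and Tap1 at 9.47% of the fresh level, than Nlrc5 at 1.59%. Of the class II genes H2-Aa, H2-Ab1, H2-Eb1 and Cd74 were lower at both times, from PMSC levels that were already low. Cd74 had 0.0761, 0, 0.147 and 0.451 CPM in PMSC-MF-3d, against 49.9, 14.3, 8.15 and 11.6 CPM in PMSCs (log2 fold change -6.92 ± 0.75 (SE), adjusted p = 6.4e-08; -6.04 without PMSC replicate 1 and -8.00 without PMSC-MF-3d replicate 4). H2-Aa had 2 counts in the 3-day libraries, all in replicate 4, a 332-fold lower level (95% counting interval 91.1 to 2748-fold). Beside these values, the endothelial marker sum was 2.29 to 4.14 CPM in PMSC-MF-3d and 40.5 to 173 CPM in PMSCs, and 8 of 8 of its genes were lower in PMSC-MF-3d, and the hepatocyte sum was 0.114 to 1.35 CPM in PMSC-MF-3d, 0.0367 to 2.202 CPM in PMSC-MF-7d and 682 to 1096 CPM in PMSCs, with 8 of 8 genes lower at both times. The macrophage sum was 31.5 to 44.01 CPM in PMSC-MF-3d and 28.8 to 38.5 CPM in PMSCs, or 21.2 to 30.4 TPM in PMSC-MF-3d and 50.7 to 65.6 TPM in PMSCs, and 8 of its 16 genes were lower and 1 higher in PMSC-MF-3d. Of 5 B cell markers 2 passed the filter on low counts, and 2 were lower at both times. The part of RNA from these cell types in the changes was not tested.

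**Figure D3:**
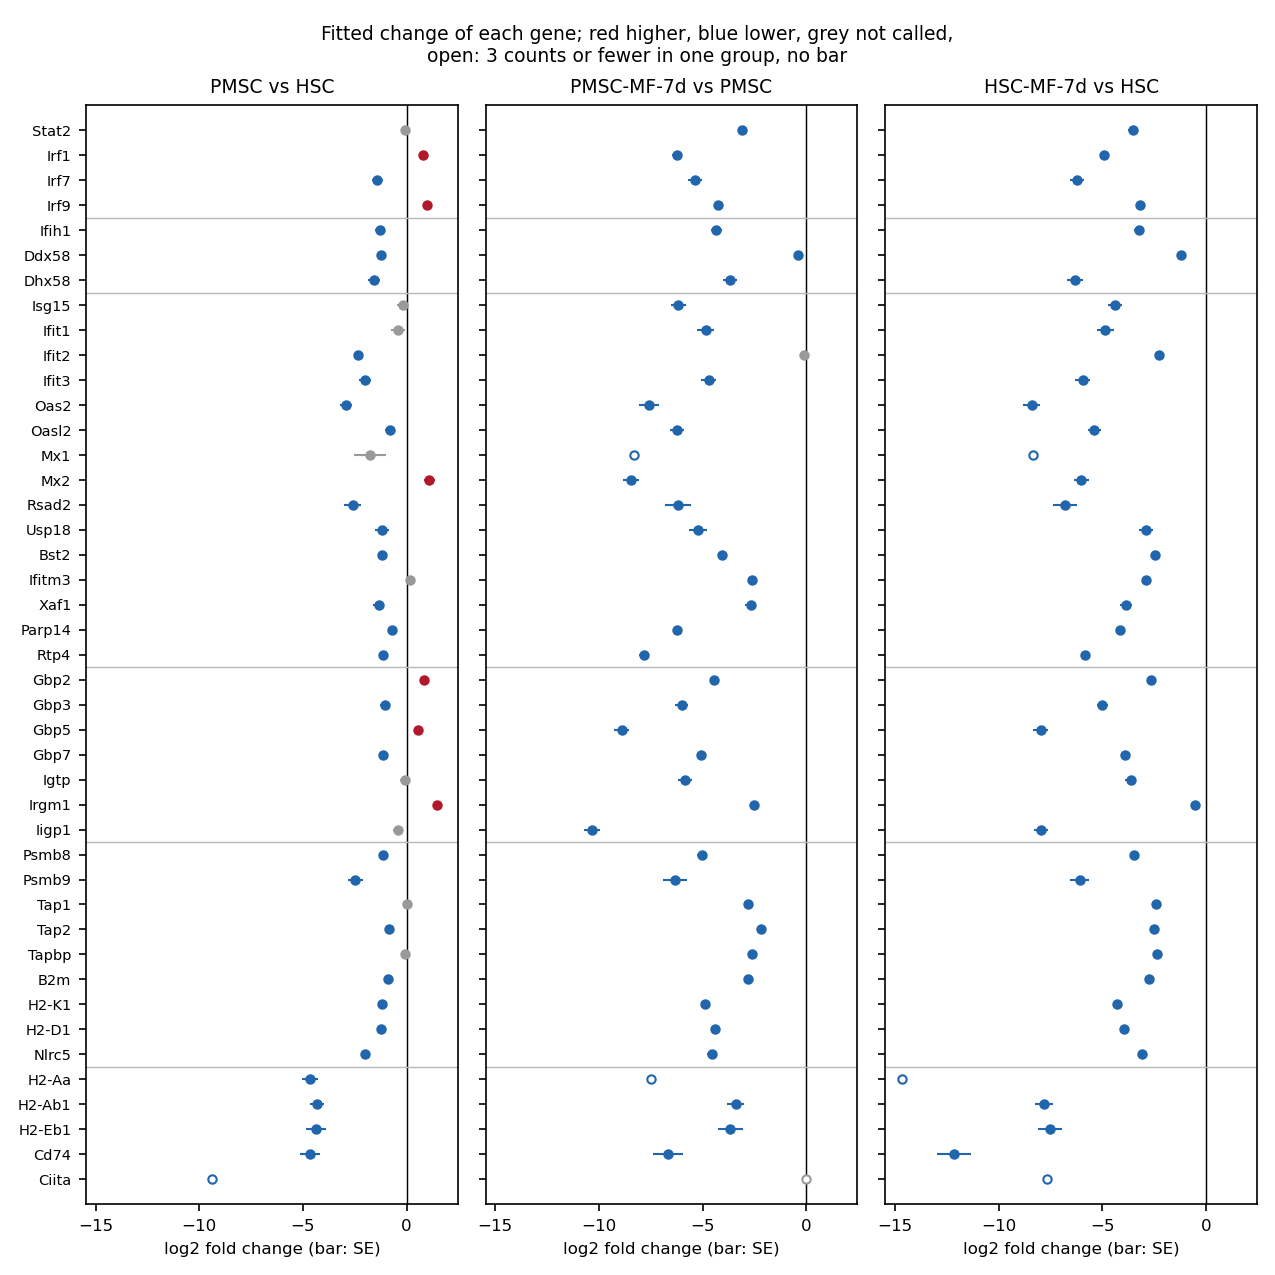
Log2 fold change (horizontal axis, bars show SE) of each of the 43 genes in PMSC against HSC, PMSC-MF-7d against PMSC and HSC-MF-7d against HSC, by edgeR, with open symbols where 1 of the groups held at most 3 counts. The culture changes lie far left of 0 for nearly all genes. Ciita is set aside in PMSC culture, where it had 0 counts in both groups and its point is no measured change. Of the others, Ifit2 at -0.09 and Ddx58 at -0.42 in PMSC culture and Irgm1 at -0.52 in HSC culture lie nearest to 0.

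Between 7 and 3 days of culture the genes moved less. In PMSC-MF-7d 15 of the 43 genes were higher and 5 lower than in PMSC-MF-3d. Over all genes 18.6% were higher and 17.4% lower, and the median log2 fold change was 0.27 for the 43 genes and 0.00 for all genes. The higher genes were Stat2, Irf7, Ddx58, Isg15, Ifit1, Ifit3, Xaf1, Gbp2, Gbp5, Tap1, Tap2, Tapbp, B2m, Nlrc5 and H2-Ab1. The lower genes were Irf1, Bst2, Parp14, H2-K1 and H2-D1. PMSC-MF-7d replicate 1 was the highest library of its group for 28 of the 41 genes with a count (68.3%), against 31.9% of all genes tested. Without it 10 genes were higher and 6 lower. The calls lost without it were Irf7 (adjusted p = 0.07), Isg15 (0.059), Ifit3 (0.093), Gbp2 (0.066) and Tap1 (0.06).

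In class I presentation the genes differed in direction. B2m had 296, 291, 253 and 288 CPM in PMSC-MF-7d and 196, 196, 186 and 198 CPM in PMSC-MF-3d, with all 7-day libraries above all 3-day libraries (log2 fold change 0.54 ± 0.08 (SE), adjusted p = 5.6e-05, edgeR). Tapbp had 61.6, 39.5, 51.3 and 50.01 CPM in PMSC-MF-7d and 31.5, 27.3, 25.9 and 31.6 CPM in PMSC-MF-3d, also without overlap (log2 fold change 0.80 ± 0.12 (SE), adjusted p = 3e-05). H2-K1, which pairs with B2m, had 36.9, 31.3, 32.6 and 37.9 CPM in PMSC-MF-7d and 64.95, 62.3, 63.1 and 66.5 CPM in PMSC-MF-3d (log2 fold change -0.89 ± 0.10 (SE), adjusted p = 2e-06), and H2-D1 was lower as well (log2 fold change -0.50 ± 0.09 (SE), adjusted p = 0.00036). Every 7-day library lay below every 3-day library for both heavy chains. Nlrc5 had 0.543, 0.652, 0.257 and 0.636 CPM in PMSC-MF-7d and 0.114, 0.07499, 0.404 and 0.188 CPM in PMSC-MF-3d (log2 fold change 1.38 ± 0.35 (SE), adjusted p = 0.0042), and these groups overlapped. The fold change was 1.996 without PMSC-MF-3d replicate 3; the call was lost with the groups compared alone (adjusted p = 0.071) and with limma on log2(TPM + 1) (adjusted p = 0.37). Among effectors and GTPases the values were low at both times. Ifit1 had 3.98, 1.43, 0.6598 and 1.31 CPM in PMSC-MF-7d and 0.114, 0.45, 0.147 and 0.263 CPM in PMSC-MF-3d (log2 fold change 2.89 ± 0.59 (SE), adjusted p = 0.00073; 2.18 without PMSC-MF-7d replicate 1). Isg15 had 3.15, 1.35, 0.916 and 0.636 CPM in PMSC-MF-7d and 0.152, 0.562, 0.514 and 0.414 CPM in PMSC-MF-3d (log2 fold change 1.86 ± 0.50 (SE), adjusted p = 0.0068; 1.198 without PMSC-MF-7d replicate 1), and replicate 1 was the highest 7-day library. Gbp5 had 22 counts over the 7-day libraries and 1 over the 3-day libraries, that 1 in replicate 3, a ratio of 21.8 with a 95% counting interval from 3.53 to 900.2; the call was lost without PMSC-MF-7d replicate 3 (adjusted p = 0.054), and with limma on log2(TPM + 1) (adjusted p = 0.34). Parp14, an ADP-ribosyltransferase, was lower at 7 days with 3.51, 1.71, 1.17 and 2.12 CPM in PMSC-MF-7d and 4.79, 6.04, 5.58 and 5.003 CPM in PMSC-MF-3d (log2 fold change -1.32 ± 0.23 (SE), adjusted p = 0.00014). Bst2 was lower too (log2 fold change -0.84 ± 0.20 (SE), adjusted p = 0.0024). The decrease of Irf1 (log2 fold change -0.50 ± 0.18 (SE), adjusted p = 0.035) was lost without PMSC-MF-3d replicate 1, 2 or 4 (adjusted p = 0.08, 0.06 and 0.064), without PMSC-MF-7d replicate 2 or 3 (adjusted p = 0.11 and 0.099) and with limma on log2(TPM + 1) (adjusted p = 0.098). The increase of Ifit3 was also lost without PMSC-MF-3d replicate 1 or 2 or PMSC-MF-7d replicate 4 (adjusted p = 0.073, 0.086 and 0.059). The class II beta chain H2-Ab1 had 0.688, 0.449, 0.733 and 0.884 CPM in PMSC-MF-7d and 0.0761, 0.07499, 0.2201 and 0.0752 CPM in PMSC-MF-3d (log2 fold change 2.56 ± 0.72 (SE), adjusted p = 0.0089), without overlap and at levels under 1 CPM.

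**Figure D4:**
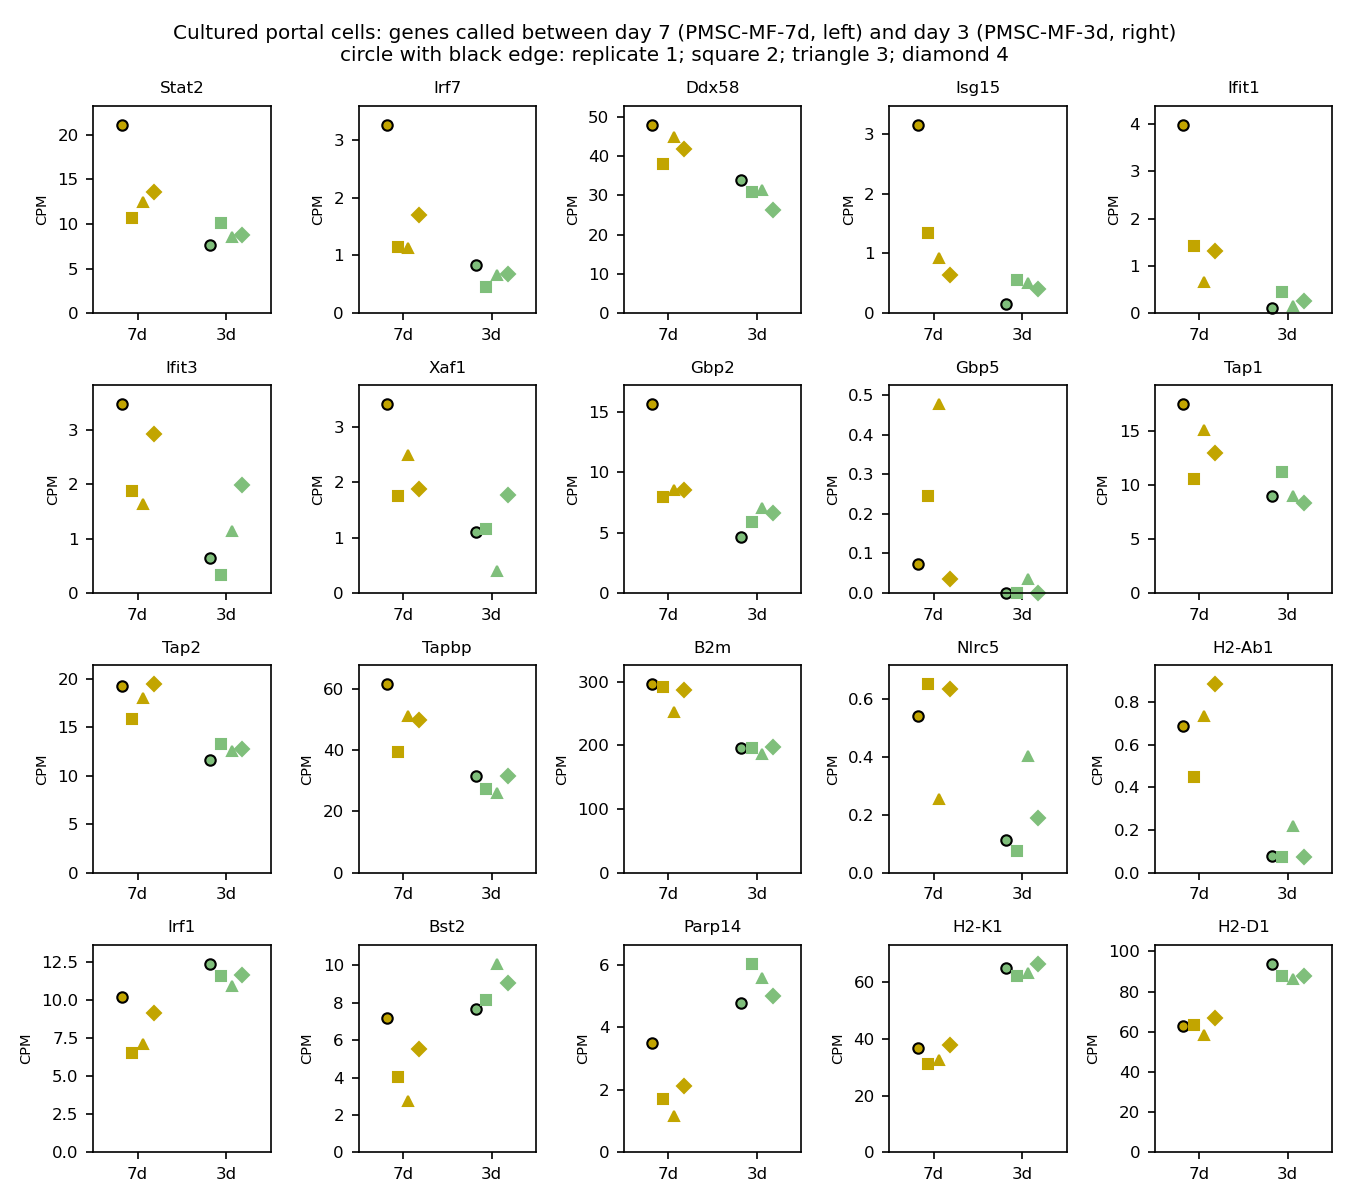
Level in CPM (linear axis) of the 20 genes called between PMSC-MF-7d (left points of each pair) and PMSC-MF-3d (right points), 4 libraries each. The 7-day points lie above the 3-day points for B2m and Tapbp and below them for H2-K1 and H2-D1, and PMSC-MF-7d replicate 1 is the uppermost point for Isg15, Ifit1 and Gbp2.

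The matching question for stellate cells compared HSC-MF-7d with fresh HSCs. All 43 genes were lower in HSC-MF-7d and 0 were higher, whereas 38.5% of all genes tested were lower and 36.0% higher. The median log2 fold change was -4.30 for the 43 genes and -0.03 for all genes. The genes kept a median of 5.08% of the HSC level, with 29 under 10% and 10 under 1%. Irgm1 kept the most, 69.7%, with 70.8, 77.2, 83.8 and 83.4 CPM in HSC-MF-7d and 128, 86.5, 136 and 102 CPM in HSCs; every cultured library was below every fresh one (log2 fold change -0.52 ± 0.16 (SE), adjusted p = 0.0074, edgeR). Ddx58 kept 43.05% and Ifit2 21.1%. Ifit2 had 34.5, 31.7, 35.8 and 38.3 CPM in HSC-MF-7d and 200.5, 130.3, 209 and 123 CPM in HSCs (log2 fold change -2.24 ± 0.17 (SE), adjusted p = 3.9e-10). Of the transcription factors, Irf1 had 13.4, 13.2, 9.88 and 11.9 CPM in HSC-MF-7d against 248 to 452 CPM in HSCs (log2 fold change -4.89 ± 0.20 (SE), adjusted p = 4.8e-14) and Irf7 1.998, 2.48, 2.52 and 3.77 CPM against 105 to 288 CPM (log2 fold change -6.20 ± 0.34 (SE), adjusted p = 3.2e-12). Iigp1 had 1.74, 2.79, 1.43 and 3.19 CPM in HSC-MF-7d against 444 to 825 CPM in HSCs (log2 fold change -7.96 ± 0.33 (SE), adjusted p = 6.6e-14). The heavy chains H2-K1 and H2-D1 were 19.7-fold lower and 15.2-fold lower in HSC-MF-7d. Class II RNA was nearly absent. H2-Aa had 0 counts over the 4 HSC-MF-7d libraries, at least 3767-fold lower than in HSCs, and Cd74 had 0, 0.0507, 0.0681 and 0.319 CPM against 335 to 924 CPM (log2 fold change -12.16 ± 0.82 (SE), adjusted p = 7.8e-11; -13.57 without HSC-MF-7d replicate 4). Ciita had 1 count in HSC-MF-7d, in replicate 4, a 295-fold lower level (95% counting interval 52.5 to 11700.0-fold), and Mx1 likewise 1 count, in replicate 3, 482-fold lower (86.1 to 19090.0-fold). The macrophage marker sum moved alongside, with 33.2 to 63.3 CPM in HSC-MF-7d and 3289 to 12180.0 CPM in HSCs and 16 of 16 markers lower, as did the endothelial sum, with 14.3 to 22.5 CPM in HSC-MF-7d and 6183 to 7345 CPM in HSCs and 8 of 8 lower, and the hepatocyte sum, with 0.405 to 1.22 CPM in HSC-MF-7d and 3238 to 13450.0 CPM in HSCs and 8 of 8 lower. Their part in the changes of the 43 genes was not tested.

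Set against each other, PMSC-MF-7d had 22 of the 43 genes lower and 2 higher than HSC-MF-7d, where 23.1% of all genes were lower and 23.9% higher. The median was -0.96 for the 43 genes, -0.94 with near-absent genes at their bound, and 0.00 for all genes. By role, 1 of 4 transcription factors, 2 of 3 sensors, 6 of 15 effectors, 6 of 7 GTPases, 7 of 9 class I genes and 0 of 5 class II genes were lower. The 2 higher genes were Ifitm3 and Dhx58. Nlrc5 had 0.543, 0.652, 0.257 and 0.636 CPM in PMSC-MF-7d and 6.05, 6.13, 5.52 and 5.896 CPM in HSC-MF-7d, and these groups did not overlap (log2 fold change -3.49 ± 0.25 (SE), adjusted p = 8.3e-10, edgeR). Usp18 had 0.869, 0.612, 0.0733 and 0.106 CPM in PMSC-MF-7d and 3.89, 4.71, 4.701 and 5.68 CPM in HSC-MF-7d (log2 fold change -3.51 ± 0.43 (SE), adjusted p = 1.6e-06; -4.19 without PMSC-MF-7d replicate 1). Bst2 had 7.21, 4.04, 2.75 and 5.51 CPM in PMSC-MF-7d and 29.8, 34.3, 34.3 and 37.2 CPM in HSC-MF-7d (log2 fold change -2.79 ± 0.20 (SE), adjusted p = 1e-09). For both genes all PMSC-MF-7d libraries were below all HSC-MF-7d libraries. B2m (log2 fold change -0.96 ± 0.08 (SE), adjusted p = 1.9e-08), H2-K1 (log2 fold change -1.78 ± 0.10 (SE), adjusted p = 8.1e-11) and H2-D1 (log2 fold change -1.72 ± 0.10 (SE), adjusted p = 4.7e-11) were lower in PMSC-MF-7d, as were the GTPases other than Gbp5, from -2.81 for Iigp1 to -0.51 for Irgm1 on the log2 scale. Irf1, Gbp2 and Irgm1, which were higher in fresh PMSCs than in fresh HSCs, were lower here, with log2 fold changes of -0.56 (adjusted p = 0.015) for Irf1, -0.92 (adjusted p = 0.0012) for Gbp2 and -0.51 (adjusted p = 0.015) for Irgm1. The call of Irf1 was lost without PMSC-MF-7d replicate 2 or 3 (adjusted p = 0.057 and 0.052), and that of Irgm1 without PMSC-MF-7d replicate 4 (adjusted p = 0.057). Ifitm3 had 179, 132, 133 and 146 CPM in PMSC-MF-7d and 104, 104, 104 and 114 CPM in HSC-MF-7d (log2 fold change 0.47 ± 0.11 (SE), adjusted p = 0.0012). Dhx58 was at 0.3299 to 1.45 CPM in PMSC-MF-7d and 0.159 to 0.681 CPM in HSC-MF-7d (log2 fold change 1.09 ± 0.42 (SE), adjusted p = 0.038). Its call was lost without any 1 of 6 libraries, among them PMSC-MF-7d replicate 1 (0.70, adjusted p = 0.18), and with the replicate number as a block (adjusted p = 0.054). The call was also lost with only the groups compared (adjusted p = 0.11) and with limma on log2(TPM + 1) (adjusted p = 0.14) and log2(TPM + 0.1) (adjusted p = 0.057). Of the macrophage markers 11 of 16 were lower as well, with a sum of 11.4 to 16.6 CPM in PMSC-MF-7d and 33.2 to 63.3 CPM in HSC-MF-7d. Of the endothelial markers 7 of 8 were lower, with a sum of 1.96 to 4.29 CPM in PMSC-MF-7d and 14.3 to 22.5 CPM in HSC-MF-7d. The 8 hepatocyte markers were not called. The part of these cell types in the differences was not tested. If the stellate-derived cells were cultured for 3 days, as the design text has it, time in culture and cell of origin cannot be told apart in this comparison. PMSC-MF-3d would then be the portal group of matching time, and it was not tested against HSC-MF-7d. By the levels given above, Irf1 overlapped between PMSC-MF-3d and HSC-MF-7d, whereas Nlrc5 was lower in every PMSC-MF-3d library.

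The culture change itself was then compared between the cell types, as the PMSC-MF-7d minus PMSC change less the HSC-MF-7d minus HSC change. It differed for 27 of the 43 genes, 19 with a lower and 8 with a higher value for PMSCs, where 29.2% of all genes were lower and 31.4% higher. The median difference was -0.43 for the 43 genes and 0.10 for all genes; with library totals the all-gene median was 0.44, the share of called genes with a higher value was 66.0%, against 51.8% with TMM, and 13 of the 43 genes had a higher value. Ifit2 was the effector with the largest positive difference, its change being -0.09 in PMSC culture and -2.24 in HSC culture (difference 2.15 ± 0.24 (SE), adjusted p = 2e-07, edgeR). Dhx58 (-3.68 in PMSC culture and -6.34 in HSC culture) and Ddx58 (-0.42 and -1.22 in the same order) also fell less in PMSC culture (adjusted p of the difference = 0.00014 and 6e-05). Irgm1 had the opposite difference. It fell by 2.52 on the log2 scale in PMSC culture and by 0.52 in HSC culture (difference -1.99 ± 0.23 (SE), adjusted p = 4.8e-07). Iigp1 (-2.39), Igtp (-2.22), Gbp2 (-1.78), Mx2 (-2.44), Usp18 (-2.32), Parp14 (-2.07), Rtp4 (-1.97), Isg15 (-1.76), Bst2 (-1.59) and Psmb8 (-1.59) likewise had a more negative change in PMSC culture. With limma on log2(TPM + 1) the calls of Iigp1 (-0.38, adjusted p = 0.24) and Rtp4 (-0.14, adjusted p = 0.5) were lost. The class I heavy chains had smaller differences, H2-K1 by -0.61 (adjusted p = 0.0011) and H2-D1 by -0.49 (adjusted p = 0.0036), and both calls were lost with library totals (adjusted p = 0.088 and 0.3). Nlrc5 had a difference of -1.47 (adjusted p = 0.0004), which turned to 0.71 (adjusted p = 0.00079) with limma on log2(TPM + 1). The class II genes H2-Ab1, H2-Eb1 and Cd74 had a higher value in PMSCs, whose fresh level was low: the difference was 4.41 (adjusted p = 7.3e-06) for H2-Ab1, 3.86 (adjusted p = 0.0014) for H2-Eb1 and 5.51 (adjusted p = 0.011) for Cd74. Cd74 lost its call without PMSC-MF-7d replicate 1 (4.69, adjusted p = 0.13). Without PMSC replicate 1 the difference was 4.71 for H2-Eb1 and 6.39 for Cd74 (6.95 without HSC-MF-7d replicate 4), and without PMSC-MF-7d replicate 1 it was -2.41 for Isg15, -2.996 for Usp18 and -1.68 for Gbp3. The calls of Gbp3 and Ifit3 were lost without any 1 of 6 and of 5 libraries in turn, for Gbp3 without PMSC-MF-7d replicate 2, 3 or 4, HSC replicate 4 or HSC-MF-7d replicate 2 or 4 (adjusted p from 0.051 to 0.075), and for Ifit3 without PMSC-MF-7d replicate 1 or 4, HSC replicate 3 or HSC-MF-7d replicate 2 or 3 (adjusted p from 0.055 to 0.081).

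Immunoproteasome subunits replace constitutive ones, so each was also read as a ratio of TPM to its counterpart in the same library. Psmb8 over Psmb5 was 0.951 ± 0.318 in PMSCs, 0.0116 ± 0.00198 after 3 days and 0.0119 ± 0.00464 after 7 days of PMSC culture, 0.0785 ± 0.00468 in HSC-MF-7d and 1.85 ± 0.3497 in HSCs (SD, n = 4 each). The fresh libraries were far above the cultured ones in both cell types. Psmb9 over Psmb6 was 0.1498 ± 0.0317 in PMSCs and 0.787 ± 0.0679 in HSCs, and 0.00826 ± 0.005798 in HSC-MF-7d. Psmb9 was listed at 0 in PMSC-MF-3d replicate 4 and PMSC-MF-7d replicate 3. Psmb10, which is not among the 43 genes, was read over Psmb7 at 0.0403 ± 0.00397 in PMSC-MF-7d, 0.02496 ± 0.00301 in HSC-MF-7d, 0.557 ± 0.1401 in PMSCs and 0.8097 ± 0.127 in HSCs. The constitutive Psmb5, Psmb6 and Psmb7 were all higher in PMSC-MF-3d, PMSC-MF-7d and HSC-MF-7d than in the fresh cells of the same lineage, while Psmb8 and Psmb9 were lower.

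**Figure D5:**
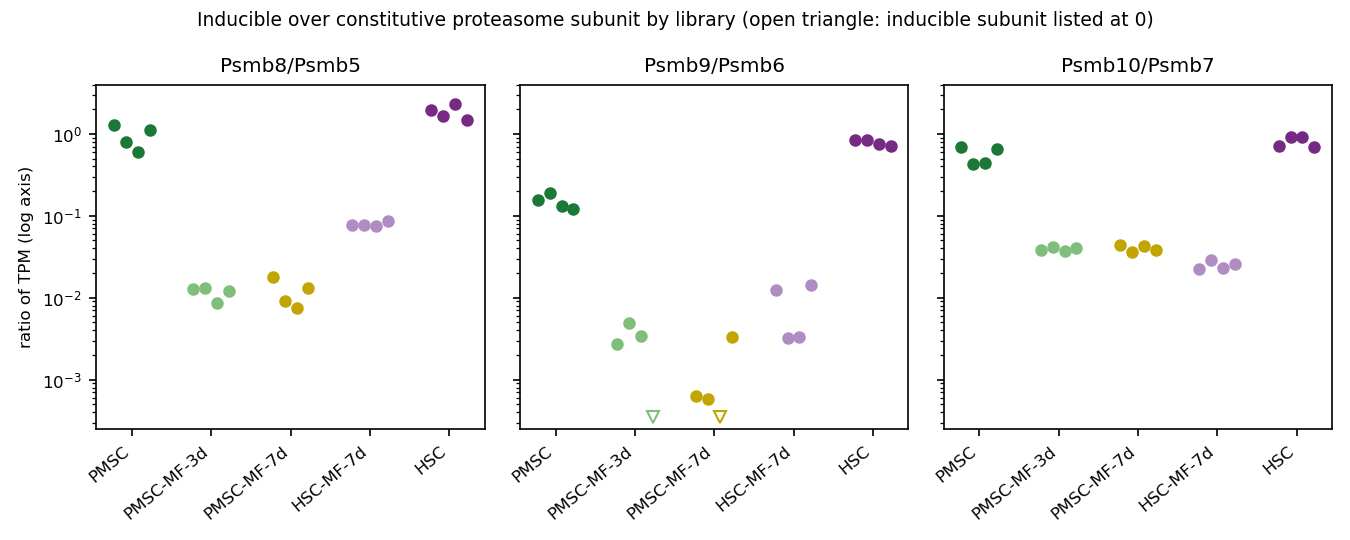
Ratio of TPM of each immunoproteasome subunit to its constitutive counterpart (log axis) in every library, by group (points). Psmb8 over Psmb5 lies between 0.597 and 1.297 in PMSCs, between 0.0746 and 0.0853 in HSC-MF-7d and between 1.495 and 2.299 in HSCs. Open triangles near the lower edge stand for ratios of 0, and their height is not a measured value.

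The wider pathway was read from lists of genes outside the 43. Of 12 interferon ligand genes 0 passed the filter on low counts, and the highest level of any in any library was that of Ifng, 2.23 CPM in an HSC library. The counts of these lists stand beside the shares over all genes, which were 33.6% higher and 40.1% lower in PMSCs than in HSCs, 38.1% higher and 39.0% lower in PMSC-MF-7d than in PMSCs, and 36.0% higher and 38.5% lower in HSC-MF-7d than in HSCs. Of 11 receptor and kinase genes 4 were higher and 6 lower in PMSCs than in HSCs, 2 higher and 7 lower in PMSC-MF-7d than in PMSCs, and 2 higher and 7 lower in HSC-MF-7d than in HSCs, so that in fresh PMSCs the higher share was near that of all genes. Ifnar2 had 36.3, 31.9, 35.01 and 35.3 CPM in PMSC-MF-7d against 213, 211, 188 and 192 CPM in PMSCs (log2 fold change -2.54 ± 0.09 (SE), adjusted p = 3.5e-15, edgeR). Ifnar1, the other receptor chain, named here after its values were seen, was called in none of the 7 comparisons. Of 16 genes of sensing upstream of interferon 3 were higher and 10 lower in PMSCs than in HSCs, 4 higher and 9 lower in PMSC-MF-7d than in PMSCs, and 1 higher and 13 lower in HSC-MF-7d than in HSCs. Irf8 had 0.2896, 0.449, 0.0367 and 0.212 CPM in PMSC-MF-7d against 141, 148, 93.2 and 138 CPM in PMSCs (log2 fold change -9.04 ± 0.38 (SE), adjusted p = 5.7e-14), and Tlr7, an endosomal RNA sensor of immune cells, had 0, 0.189, 0 and 0 CPM in PMSCs and 78.1, 28.01, 29.8 and 17.2 CPM in HSCs.

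Of 10 genes listed as negative regulators 5 were higher and 3 lower in PMSCs than in HSCs, and 2 higher and 8 lower in PMSC-MF-7d than in PMSCs. The list includes Isg20, an interferon-induced exonuclease rather than a regulator, which is among the 5 higher and the 8 lower genes. Socs3, a feedback inhibitor of Jak signalling, had 13.4, 7.34, 6.89 and 8.23 CPM in PMSC-MF-7d against 1992, 2789, 1769 and 1808 CPM in PMSCs (log2 fold change -7.86 ± 0.29 (SE), adjusted p = 9.5e-15, edgeR), and Socs1 changed by -4.27 (adjusted p = 8.8e-11). Of 42 further interferon-induced genes 3 were higher and 35 lower in PMSCs than in HSCs, 2 higher and 36 lower in PMSC-MF-7d than in PMSCs, and 0 higher and 41 lower in HSC-MF-7d than in HSCs. Between PMSC-MF-7d and PMSC-MF-3d 10 were higher and 0 lower, where 18.6% of all genes were higher and 17.4% lower. Cxcl10, a T cell attractant, had 0.181, 1.101, 1.25 and 0.389 CPM in PMSC-MF-7d against 593, 443, 371 and 341 CPM in PMSCs (log2 fold change -9.24 ± 0.40 (SE), adjusted p = 8.3e-14), and Ifitm1 0.7603, 0.245, 0 and 0.0707 CPM against 202, 128, 165 and 118 CPM (log2 fold change -9.12 ± 0.42 (SE), adjusted p = 1.8e-13). Of 14 tested genes of other class I machinery 0 were higher and 12 lower in PMSCs than in HSCs, and 3 higher and 11 lower in PMSC-MF-7d than in PMSCs. The nonclassical H2-T23 had 15.5, 11.2, 12.1 and 14.7 CPM in PMSC-MF-7d against 242, 219.6, 183 and 164 CPM in PMSCs (log2 fold change -3.91 ± 0.16 (SE), adjusted p = 2.8e-14). Of 14 tested genes of other class II machinery 3 were higher and 6 lower in PMSCs than in HSCs, and 1 higher and 8 lower in PMSC-MF-7d than in PMSCs. The higher one was Cd80, a T cell costimulator, with 21.1, 23.04, 32.9 and 34.2 CPM in PMSC-MF-7d and 0.1995, 0.568, 4.91 and 0.0581 CPM in PMSCs (log2 fold change 4.52 ± 0.67 (SE), adjusted p = 4.6e-06), and PMSC replicate 3 was the high fresh library. Ctss, the protease that trims Cd74 and is abundant in macrophages, had 0.333, 0.442, 0.836 and 0.465 CPM in PMSCs and 796, 401, 328 and 196 CPM in HSCs (log2 fold change -9.76 ± 0.55 (SE), adjusted p = 6.9e-12), beside the macrophage sums given above.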

How the data were processed

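Messenger RNA of 20 libraries (5 groups of 4) was measured by stranded sequencing. Extraction used an RNeasy Micro kit and library preparation a KAPA stranded kit for mRNA, per the labels' protocols. STAR 2.5.3a, RSEM 1.2.28, Trimmomatic, FastQC and build mm10 are named in the submitters' processing notes. The authors deposited, per the file headers, an RSEM expected count, a TPM and an FPKM for each of 24848 genes per library; FPKM was not used here. Expected counts were rounded to whole numbers.

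The 43 genes, the other lists and the tests were chosen with earlier results of these data known. Genes with too few counts were removed with filterByExpr (14751 of 24848 kept). Libraries were scaled by TMM and 5 group means were fitted to all 20 libraries with edgeR 4.0.16 (robust quasi-likelihood F-test, R 4.3.3), with Benjamini-Hochberg adjustment over all genes tested. Depth was 11810532 to 26675589 counts per library. Intervals and floors (3 counts over a group) cover counting error only. No pair of libraries agreed within sampling noise (chi-square per degree of freedom 3.3 at least within groups). The scripts were tested on simulated data.

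Members of other lists are named by size of change: the 4 largest called in a comparison among genes of at least 10 CPM in a group. Alternatives were library totals, DESeq2 1.42.0, no filter, only the groups compared, limma 3.58.1 on log2(TPM + 1) and log2(TPM + 0.1), the replicate number as a block, and leaving out each library. Promoter windows came from RefSeq (GRCm38.p6); 13 of the 43 genes had none in the table used. Values of 1 gene of the wider lists are not reported here.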

Additional observations from a re-analysis of the deposited data

Results flagged for a closer look

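In 13 of the 199 sets of 4 libraries with enough counts, 1 library stood away from the other three by more than Dixon's 95% critical value, where chance gives about 1 in 20. The count is thus near that of chance, and the sets share the same libraries. PMSC-MF-7d replicate 1 was the high library for Gbp2 (15.6 CPM, others 7.95 to 8.55 CPM), Gbp3 (2.25 CPM, others 0.636 to 0.734 CPM) and Igtp (2.28 CPM, others 0.696 to 0.848 CPM). PMSC replicate 1 was high for H2-Ab1 (14.5 CPM, others 4.88 to 5.12 CPM) and Cd74 (49.9 CPM, others 8.15 to 14.3 CPM), beside an endothelial marker sum of 173 CPM in that library, and PMSC replicate 2 for Ifit2 (44.2 CPM, others 27.3 to 29.4 CPM) and Gbp5 (133 CPM, others 88.5 to 90.4 CPM). In HSCs, replicate 3 was high for Isg15 (166 CPM, others 110.5 to 111 CPM) and replicate 4 low for Gbp3 (100.3 CPM, others 155 to 159 CPM). In HSC-MF-7d, replicate 4 was high for Ifitm3 (114 CPM, others at 104 CPM) and replicate 2 low for Rtp4 (1.42 CPM, others 1.998 to 2.04 CPM). In PMSC-MF-3d, replicate 3 was low for B2m (186 CPM, others 196 to 198 CPM) and high for H2-Ab1 (0.2201 CPM, others 0.07499 to 0.0761 CPM). These H2-Ab1 values rest on few counts. HSC replicate 4 was the lowest HSC library for 33 of 43 genes (76.7%), against 23.8% of all genes tested, and PMSC replicate 3 the lowest PMSC library for 25 of 42 genes (59.5%), against 34.0%. What sets these libraries apart was not tested.

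The culture change differed between PMSCs and HSCs for 27 of the 43 genes by the interaction contrast in edgeR, given as the PMSC change less the HSC change on the log2 scale. The 8 positive differences were Ddx58 0.80, Dhx58 2.66, Ifit2 2.15, Ifit3 1.25, Xaf1 1.17, H2-Ab1 4.41, H2-Eb1 3.86 and Cd74 5.51. The 19 negative differences were, for regulators and sensors, Irf1 -1.36, Irf9 -1.08 and Ifih1 -1.08. Those of effectors were Isg15 -1.76, Mx2 -2.44, Usp18 -2.32, Bst2 -1.59, Parp14 -2.07 and Rtp4 -1.97, those of GTPases Gbp2 -1.78, Gbp3 -1.02, Gbp7 -1.15, Igtp -2.22, Irgm1 -1.99 and Iigp1 -2.39, and those of class I genes Psmb8 -1.59, H2-K1 -0.61, H2-D1 -0.49 and Nlrc5 -1.47. With limma the calls of Ifih1 and Gbp7 were lost on log2(TPM + 1) (adjusted p = 0.55 and 0.905) and on log2(TPM + 0.1) (adjusted p = 0.084 and 0.051). The fresh PMSC libraries held 28.8 to 38.5 CPM of macrophage, 40.5 to 173 CPM of endothelial and 682 to 1096 CPM of hepatocyte marker RNA, and the fresh HSC libraries 3289 to 12180.0 CPM of macrophage, 6183 to 7345 CPM of endothelial and 3238 to 13450.0 CPM of hepatocyte marker RNA. The part of these in the differences was not tested.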

How the results depend on the processing

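Of 230 called changes of the 43 genes over the 7 comparisons, 206 kept their direction and stayed called under every alternative that gave a value for them. The other 24 lost the call under at least 1, and 2 of these 24 also changed sign. With only the groups compared, 224 of the 230 stayed called and 2 lost the call. The rest had no value in that fit and were not checked under it. Ddx58 in PMSC-MF-7d against PMSC turned to 0.047 on the log2 scale with library totals, 0.059 with limma on log2(TPM + 1) and 0.062 with limma on log2(TPM + 0.1). The difference of culture changes of Nlrc5 turned to 0.71 with limma on log2(TPM + 1). Genes higher in PMSC-MF-7d than in PMSCs numbered 1 with library totals and with both limma fits, against 0. Genes higher in PMSC-MF-7d than in HSC-MF-7d numbered 1 with only the groups compared and with both limma fits, against 2, and 1 to 2 over fits that left out a library each. Positive differences of culture change numbered 13 with library totals, 20 with limma on log2(TPM + 1) and 17 with limma on log2(TPM + 0.1), against 8, and negative ones 11 with limma on log2(TPM + 1), against 19. The ISRE followed by CT was in 33.3% of promoter windows, against 53.3% for the shorter form. The cause of these shifts was not tested.

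Deviations of same-numbered libraries correlated at -0.04 to 0.145. In no comparison was every number above 0.1 or every library closest to its own number. PMSC-MF-7d replicates 1, 2 and 4 were closest to the PMSC-MF-3d library of their own number (0.122, 0.1 and 0.0885). Replicate 3 was not (0.00243). With 4 libraries per group this check cannot exclude that numbers pair libraries, and the labels state no pairing. With the replicate number as a block, genes higher in PMSC-MF-7d than in HSC-MF-7d numbered 1, and no other count moved by more than 1.5 times. Depth limits the genes under 1 CPM in cultured libraries, such as the class II genes, Mx1, Oas2 and Gbp5, whose fold changes rest on few counts.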
